A study of Homo sapiens with 4 samples.

Results

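The aminoacyl-tRNA synthetases are described here in LNCaP, an androgen-responsive human prostate cancer line spelled LNCap in the labels, by their RNA levels with and without an introduced ERG gene. A list of 35 genes was fixed by name, with 19 enzymes of the cytosol and 16 of the mitochondria, and a gene was read at probe sets that the array annotation gives to it alone. Of the 35, 34 were measured at 69 probe sets, among 19583 named genes in all: 19 cytosolic and 15 mitochondrial enzymes, with MARS2 not analysed here. The mitochondrial enzymes are those whose symbols end in 2, while the phenylalanine subunits FARSA and FARSB are cytosolic. The arrays fall into 2 groups of 2: LNCap ERG, cells that took up a lentivirus for ERG joined to red fluorescent protein, and LNCap Vector, cells that took up the lentivirus for the fluorescent protein alone. Both groups come from the same line, were grown in ordinary culture medium and were harvested after a night in culture, and the labels name no drug. Whether the 2 arrays of a group stand for separate infections or dishes is not stated, so a p-value here weighs a change against the array-to-array spread alone, and that spread may be technical.

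An aminoacyl-tRNA synthetase joins an amino acid to its matching tRNA, using ATP, and so supplies the ribosome with charged tRNA. The cytosol and the mitochondria run separate translation systems, and most amino acids have a nuclear gene for each. GARS1 and KARS1 make the enzyme for both places, and EPRS1 carries the glutamate and the proline activity in a single chain. Several cytosolic enzymes sit in a large multi-synthetase complex held by scaffold proteins. When amino acids run short, the transcription factor ATF4 raises many cytosolic synthetase genes together with amino acid transporters and biosynthetic enzymes, while the mitochondrial enzymes are generally not part of that response. The best-known synthetase response of another kind is that of WARS1, the cytosolic tryptophan enzyme, to interferon gamma.

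The question for these genes was whether their RNA differed between LNCap ERG and LNCap Vector. Values are log2 probe set intensities, and a log2 fold change is the LNCap ERG mean minus the LNCap Vector mean. Intensities of different probe sets are not comparable as RNA amounts, so only changes are compared between genes. ERG itself did not check the labels: its 4 probe sets read 2.65 to 3.58 on every array and changed by -0.24 to 0.12. All stayed under 5.23, a bar set at the 95th percentile of 36 measured genes that belong to other organs and taken as the level of genes not expressed. Whether those probe sets can read the introduced ERG is not known here. Of 10 measured markers of LNCaP and luminal prostate cells, 9 lay above that level, KLK3 and FOLH1 among them, and TRPM8 did not. Of 12 measured markers of basal, fibroblast, endothelial and white blood cells, 10 were not above it, PTPRC, CDH5 and KRT5 included, and the exceptions were COL1A1 and VWF. Their summed intensity was 573 to 609 in LNCap ERG and 476 in both LNCap Vector arrays, or 160 to 166 and 140 to 156 without COL1A1. The part of these markers in the synthetase values was not tested. All 34 synthetase genes lay above the 5.23 level in both groups.

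No synthetase gene passed the test. With limma and Benjamini-Hochberg adjustment over all genes, 0 of 34 had an adjusted p under 0.05, against 0.0102% of all genes (2 of 19583), and the smallest adjusted p of a member was 0.454. At an unadjusted p under 0.05, limma gave 1 lower gene, WARS1, and 0 higher ones, where 4.11% of all genes were lower and 5.61% higher. The changes were small throughout, from -0.25 for WARS1 to 0.18 for SARS2, the mitochondrial serine enzyme. The 95% interval of the change lay within 1.5-fold in either direction for all 34 members and for 89.8% of all genes, and the outermost bounds among members were -0.46 for WARS1 and 0.54 for SARS2. These intervals are not adjusted over genes. The 2-array groups limit the precision: the median standard error of a member was 0.083.

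**Figure D1:**
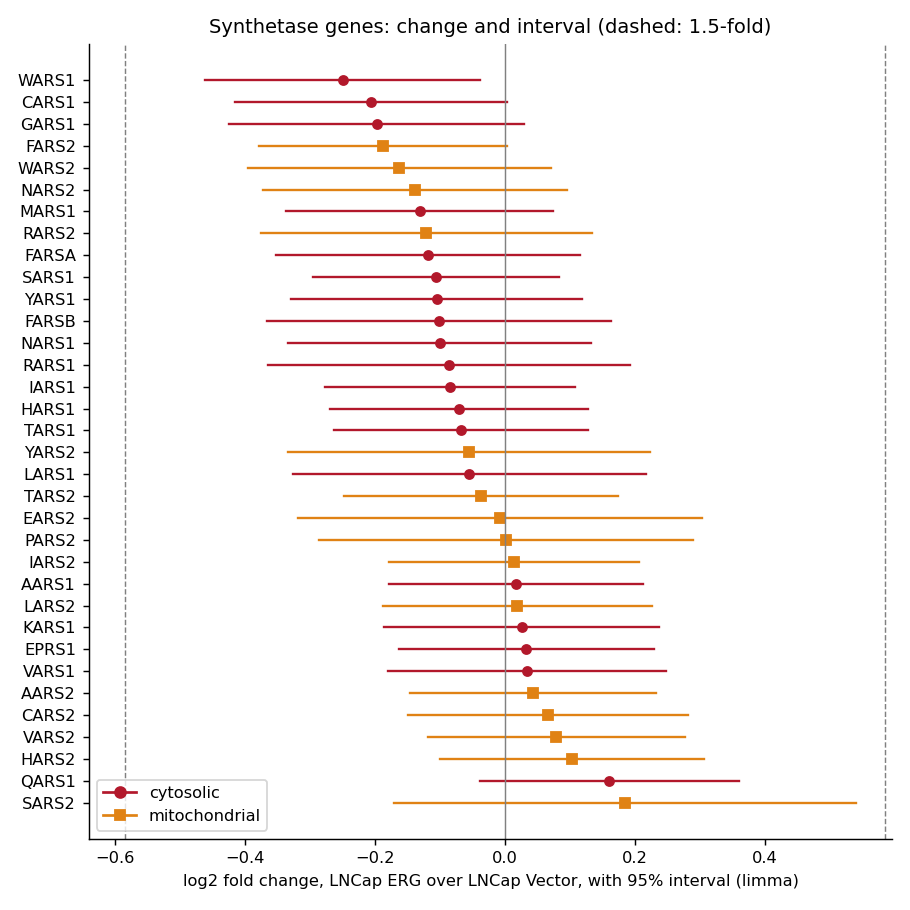
Log2 fold change, LNCap ERG over LNCap Vector (x axis), of the 34 measured synthetase genes (y axis), with the 95% interval from limma. Circles are cytosolic and squares mitochondrial enzymes, the dashed lines mark a change of 1.5-fold, and every interval lies between them, from -0.46 at the low end of WARS1 to 0.54 at the high end of SARS2.

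The cytosolic enzymes lay slightly lower in LNCap ERG and the mitochondrial enzymes were centred on 0. The cytosolic median log2 fold change was -0.09, with 14 of 19 genes below 0. The mitochondrial median was 0.00, with 7 of 15 below 0. Over all genes the median was 0.01 and 47.2% were below 0. Among cytosolic enzymes, 9 had both LNCap ERG arrays below both LNCap Vector arrays, 1 had them above, and 9 overlapped. Among mitochondrial enzymes, 4 were lower without overlap, 3 higher, and 8 overlapped. Over all genes 19.1% were lower without overlap and 21.7% higher, and over the 9804 genes above the level of other organs in both groups 23.8% and 23.9%. The mitochondrial shares are close to these, and the cytosolic share of lower genes is larger. These are descriptions over genes, which share the same 4 arrays, and carry no p. The distance between the cytosolic and the mitochondrial median, -0.09, rested on the first LNCap ERG array: without it the medians were -0.05 and -0.06 and the distance was 0.007, while without each other array in turn it was -0.15 to -0.07.

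**Figure D2:**
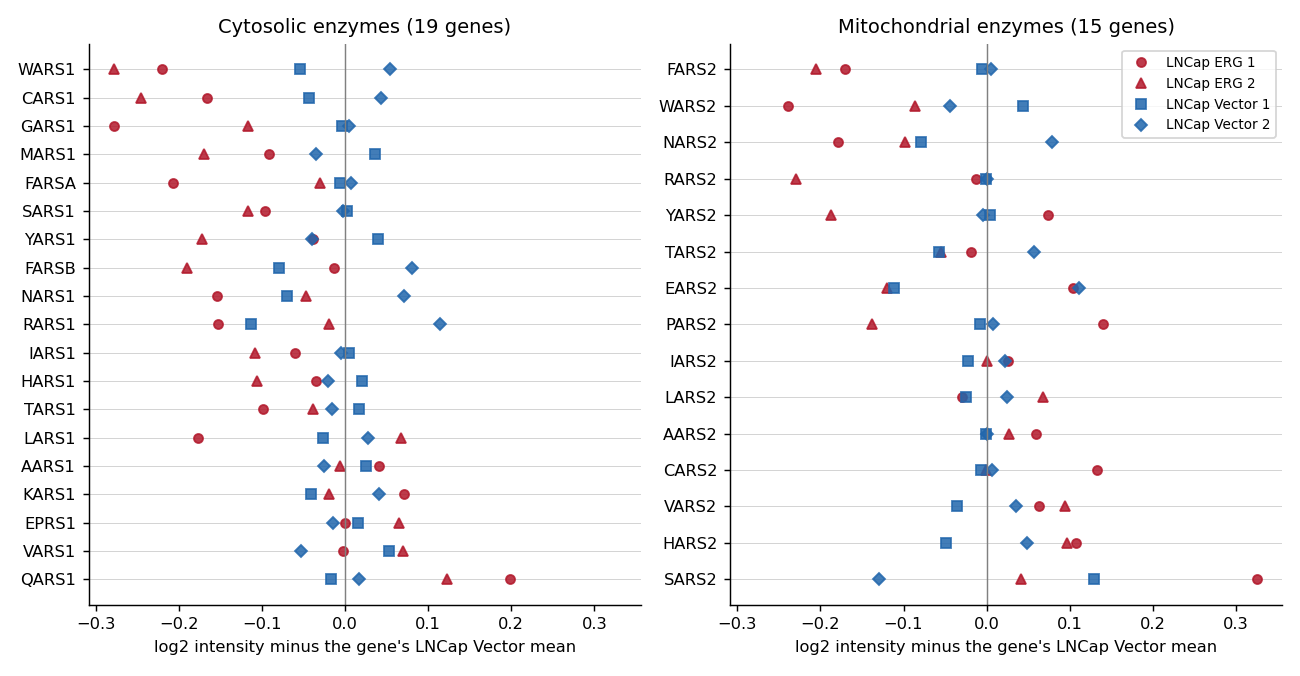
Log2 intensity of each array minus the gene's LNCap Vector mean (x axis) for the cytosolic (left) and mitochondrial (right) synthetase genes (y axis, ordered by log2 fold change). Red circles and triangles are the 2 LNCap ERG arrays, blue squares and diamonds the 2 LNCap Vector arrays; in 9 cytosolic rows both red points lie left of both blue ones, and in QARS1 right of them.

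WARS1 had the lowest change of the members. Its log2 intensity was 9.49 and 9.43 in LNCap ERG against 9.65 and 9.76 in LNCap Vector, so both LNCap ERG arrays were lower. The means were 9.46 ± 0.04 and 9.71 ± 0.08 (SD, n = 2 in each group), a 1.19-fold lower level in LNCap ERG (-0.25 on the log2 scale with a standard error of 0.08, limma adjusted p = 0.454). Its second probe set gave nearly the same change, -0.26, and without each array in turn the change stayed between -0.30 and -0.20. The change was smallest, -0.20, without the second LNCap Vector array and largest, -0.30, without the first LNCap Vector array. Such a fit leaves a group with a single array, so only the size of the change is given. With all arrays WARS1 ranked 916 from the bottom among the 19583 genes, so many genes of other kinds had lower changes.

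CARS1, the cysteine enzyme, read 10.41 and 10.33 in LNCap ERG against 10.53 and 10.62 in LNCap Vector. Both LNCap ERG arrays were lower, by -0.21 on the log2 scale (SE 0.08, limma adjusted p = 0.521). GARS1, the glycine enzyme of cytosol and mitochondria, read 10.97 and 11.13 against 11.24 and 11.25, with the LNCap Vector arrays nearly level and the LNCap ERG arrays apart from each other. Its change was -0.20 (SE 0.09, limma adjusted p = 0.557) and ran from -0.28 to -0.12 without single arrays, the smaller change without the first LNCap ERG array.

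QARS1, the glutamine enzyme, was the cytosolic gene with the highest change. It read 10.03 and 9.95 in LNCap ERG against 9.81 and 9.84 in LNCap Vector, with no overlap, a change of 0.16 on the log2 scale (SE 0.08, limma adjusted p = 0.575). It was the only cytosolic gene higher in both LNCap ERG arrays at the probe sets used, and without each array in turn its change stayed between 0.12 and 0.20.

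The other cytosolic genes without overlap had small negative changes, and all were lower in both LNCap ERG arrays. MARS1, the methionine enzyme, had -0.13, FARSA, the catalytic subunit for phenylalanine, -0.12, and SARS1, the serine enzyme, -0.11. SARS1 was the most even, at 9.95 and 9.93 in LNCap ERG against 10.05 and 10.05 in LNCap Vector. IARS1, the isoleucine enzyme, had -0.08, and HARS1 and TARS1, for histidine and threonine, had -0.07 each. The adjusted p from limma was 0.654 to 0.817 for these 6 genes. Without single arrays their changes kept their sign, but some came near to 0. FARSA had -0.03 and TARS1 -0.04 without the first LNCap ERG array, and HARS1 had -0.04 without the second.

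The remaining 9 cytosolic genes overlapped between the groups. YARS1 for tyrosine had a log2 fold change of -0.11, FARSB, the other phenylalanine subunit, and NARS1 for asparagine -0.10 each, RARS1 for arginine -0.09 and LARS1 for leucine -0.06. AARS1 for alanine had 0.02, and KARS1 for lysine, EPRS1 and VARS1 for valine had 0.03 each. AARS1 was nearly level over all 4 arrays, from 10.31 to 10.37.

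The 7 measured enzymes of the multi-synthetase complex (EPRS1, IARS1, KARS1, LARS1, MARS1, QARS1 and RARS1) were centred on -0.06 by their median change, with 4 below 0, 1 higher without overlap and 2 lower. The 12 cytosolic enzymes outside it had -0.10, with 10 below 0, 7 lower without overlap and 0 higher. Over all genes 47.2% were below 0, 19.1% lower without overlap and 21.7% higher, so the complex enzymes stood close to those shares. These counts read EPRS1 at its brightest probe set, at 0.03, while its others were lower without overlap, at -0.22 and -0.41. Without single arrays the complex median ran from -0.08 to 0.02 and that of the others from -0.12 to -0.10. AIMP1, a scaffold protein of the complex, had 0.10 (adjusted p = 0.714 from limma), and its 4 probe sets ran from -0.26 to 0.10. By catalytic fold, the 17 measured class I enzymes and the 16 class II enzymes had medians of -0.06 and -0.07, so the structural classes did not part the way the compartments did with all arrays.

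FARS2, the mitochondrial phenylalanine enzyme, had the lowest change among the mitochondrial genes. It read 7.59 and 7.55 in LNCap ERG against 7.75 and 7.76 in LNCap Vector, with no overlap and little spread within groups (-0.19 on the log2 scale, SE 0.08, limma adjusted p = 0.518). Its other probe set above the 5.23 level had -0.05 and a dim one 0.11. WARS2 for tryptophan read 7.71 and 7.86 against 7.99 and 7.91, a log2 fold change of -0.16 (adjusted p = 0.626 from limma). Both LNCap ERG arrays were lower, by little at the nearest pair, and its other probe sets, both dim, had 0.01 each. NARS2 for asparagine had -0.14 and RARS2 for arginine -0.12, each lower in both LNCap ERG arrays, with RARS2 apart in the second LNCap ERG array only (6.68 and 6.46 against 6.69 and 6.69). Without that array RARS2 had -0.01, without the second LNCap Vector array NARS2 had -0.06, and without the first LNCap ERG array WARS2 had -0.09.

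HARS2, the mitochondrial histidine enzyme, was higher in both LNCap ERG arrays, at 8.49 and 8.48 against 8.34 and 8.44 (log2 fold change 0.10, adjusted p = 0.719 from limma). VARS2 for valine and AARS2 for alanine were also higher without overlap, by 0.08 and 0.04. Without the first LNCap Vector array HARS2 had 0.05 and VARS2 0.04. SARS2 had the largest positive change of all members, 0.18, but read 6.19 and 5.90 against 5.99 and 5.73, so its groups overlapped and each group's own arrays differed by over 0.2. The other mitochondrial genes overlapped too: YARS2 for tyrosine at -0.06, TARS2 for threonine at -0.04, EARS2 for glutamate at -0.01, PARS2 for proline at 0.00, IARS2 for isoleucine at 0.01, LARS2 for leucine at 0.02 and CARS2 for cysteine at 0.07. PARS2 and EARS2 each differed within the LNCap ERG group by more than between the groups.

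For 12 amino acids the members hold a single cytosolic and a single mitochondrial gene, and the cytosolic gene had the lower change in 10 of these pairs. With all arrays the widest gap was that of serine (SARS1 minus SARS2, -0.29), followed by cysteine (-0.27), histidine (-0.17) and isoleucine (-0.10). The serine gap was -0.16 without the first LNCap ERG or the second LNCap Vector array, which put cysteine ahead, and the cysteine gap stayed between -0.31 and -0.24. In these 4 pairs the difference between the enzymes within an array was lower in both LNCap ERG arrays than in both LNCap Vector arrays. The smallest p of an exact two-sided permutation test of that difference over the 4 arrays, run for all 12 pairs, was 0.333, which is the lowest this design allows, so no pair could pass. The reverse order held for asparagine, at 0.04, and for arginine, at 0.03. The asparagine difference did not overlap either, at 3.35 and 3.38 in LNCap ERG against 3.34 and 3.32 in LNCap Vector, with the same exact p of 0.333. Without single arrays the cytosolic gene was the lower in 8 to 10 of the pairs, and the sign was kept throughout in 6.

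**Figure D3:**
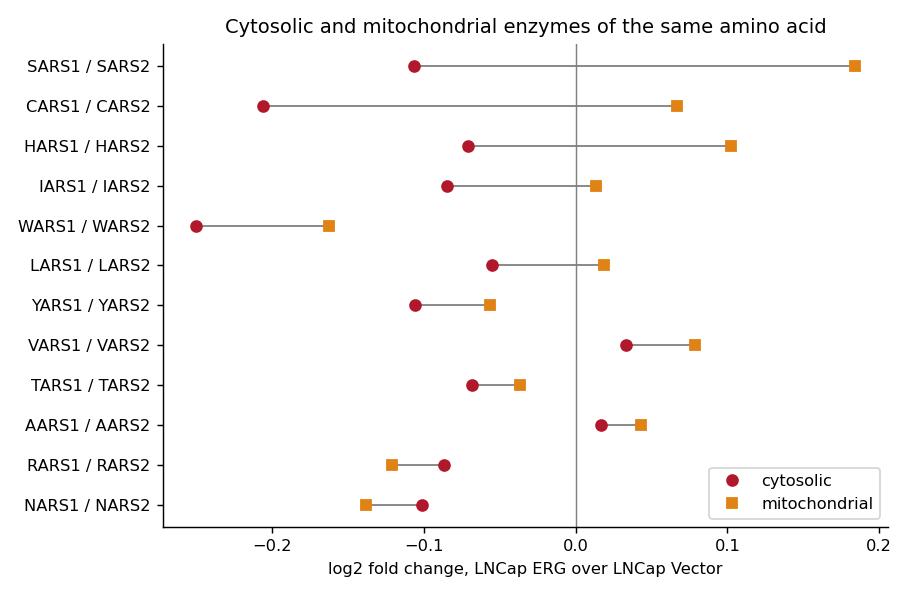
Log2 fold change, LNCap ERG over LNCap Vector (x axis), of the cytosolic (circle) and mitochondrial (square) enzyme for each of 12 amino acids (y axis), joined by a line. The circle lies left of the square in 10 pairs, most widely for SARS1 and SARS2 (-0.29), and right of it for NARS1 and RARS1.

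The start regions of these genes were read for the letters of 2 motifs, since ERG is an ETS factor and ATF4 a known regulator of the cytosolic enzymes. The windows come from RefSeq on GRCh38.p14 and reach from 250 bases before to 50 after a start. Of the 35 genes, 30 matched, with 39 windows. The ETS letters CCGGAAGT, on either strand, were in a window of 8 of the 30 genes (26.7%) and in 4.95% of all 27305 genes. They were in WARS1, CARS1, NARS1, TARS1 and HARS1 among the cytosolic genes and in HARS2, EARS2 and PARS2 among the mitochondrial ones. HARS1 and HARS2 are counted separately here, though their windows hold the same sites. The letters TTNCATCA of the composite element that ATF4 and C/EBP factors bind were in 7 of 16 cytosolic genes (43.8%) and 1 of 14 mitochondrial genes (7.14%), against 4.46% of all genes. The cytosolic genes were AARS1, CARS1, GARS1, IARS1, MARS1, NARS1 and TARS1, and the mitochondrial gene was YARS2. A match is a description of letters and shows no binding.

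Printed here are the 90 bases before and 20 after the start of the 3 cytosolic genes with the lowest changes, of QARS1 with the highest, and of HARS2, 5′ to 3′ on the gene's strand. Capitals mark the letters of either motif on either strand, and QARS1 has neither in its window. WARS1, CARS1 and GARS1 have 2 windows each, and the one printed was picked for holding letters of a motif. Their other windows hold neither motif. WARS1 lies at chr14:100376308-100376417 (minus strand), CARS1 at chr11:3057404-3057513 (minus), GARS1 at chr7:30594788-30594897 (plus), QARS1 at chr3:49104738-49104847 (minus) and HARS2 at chr5:140691365-140691474 (plus).
WARS1: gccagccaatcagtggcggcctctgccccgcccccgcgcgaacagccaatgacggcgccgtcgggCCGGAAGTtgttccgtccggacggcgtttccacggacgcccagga
CARS1: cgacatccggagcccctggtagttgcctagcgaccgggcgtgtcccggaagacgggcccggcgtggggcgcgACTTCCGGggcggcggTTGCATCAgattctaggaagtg
GARS1: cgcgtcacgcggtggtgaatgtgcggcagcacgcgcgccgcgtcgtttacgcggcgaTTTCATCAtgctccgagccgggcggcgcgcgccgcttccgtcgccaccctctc
QARS1: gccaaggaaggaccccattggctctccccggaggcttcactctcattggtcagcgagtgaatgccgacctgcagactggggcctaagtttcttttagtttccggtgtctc
HARS2: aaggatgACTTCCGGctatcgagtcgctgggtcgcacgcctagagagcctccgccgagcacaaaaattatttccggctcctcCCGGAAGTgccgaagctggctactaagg

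In WARS1 the ETS letters begin 25 bases before the start, and in CARS1 18 before it, with the composite element's letters running across the start. In GARS1 those letters begin 33 bases before the start used here. HARS1 and HARS2 are read in opposite directions from starts with 84 bases between them, so the stretch printed for HARS2 is also the start region of HARS1. It holds the ETS letters at each end, at chr5:140691372-140691379 beside the HARS1 start and at chr5:140691447-140691454 beside the HARS2 start. From this shared region HARS1 had a change of -0.07 and HARS2 one of 0.10, the groups of each gene without overlap, and without single arrays they came as near to 0 as -0.04 (second LNCap ERG array left out) and 0.05. The difference between these genes within an array was 0.82 and 0.76 in LNCap ERG against 1.03 and 0.89 in LNCap Vector.

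The letters went with no clear order of the changes. The 5 cytosolic genes with the ETS letters had log2 fold changes of -0.25 to -0.07 (median -0.10) and the 11 with a window but without them -0.20 to 0.16 (median -0.09). The 3 mitochondrial genes with them ran from -0.01 to 0.10 (median 0.00) and the 10 measured ones with a window but without them from -0.19 to 0.18 (median -0.05). The 7 cytosolic genes with the composite element's letters ran from -0.21 to 0.02 (median -0.10) and the 9 without from -0.25 to 0.16 (median -0.09).

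Several genes have more than 1 probe set, and these did not always move together. Of the 34 genes, 18 had several, and of the 69 probe sets 51 lay above the 5.23 level in a group. With all named probe sets tested together, 0 of the 69 passed by limma with Benjamini-Hochberg adjustment (smallest adjusted p = 0.422), and 5 were lower and 0 higher at an unadjusted p under 0.05, where 4.41% of all 39464 probe sets were lower. These 5 belong to WARS1 (both of its probe sets), EPRS1 (2 of 3) and CARS1 (a dim one at -0.59, from 4.48 and 4.62 in LNCap Vector to 3.87 and 4.06). Among probe sets above the 5.23 level, those of EPRS1 lay farthest apart, and with dim ones counted those of CARS1 did (-0.59 to 0.00). The brightest probe set of EPRS1 read 10.88 and 10.95 in LNCap ERG against 10.90 and 10.87 in LNCap Vector, which overlap. The next read 10.24 and 10.26 against 10.45 and 10.49, and the third 7.34 and 7.49 against 7.74 and 7.92, both lower without overlap (-0.22 and -0.41). The mean of its probe sets had -0.20. Of the 13 genes with several probe sets above the level, 11 had the same sign at all of them, and EPRS1 and EARS2 did not. Of the 34 genes, 9 were read at probe sets marked _s_ and MARS1 at a set marked _x_, kinds whose probes can be shared with further transcripts.

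**Figure D4:**
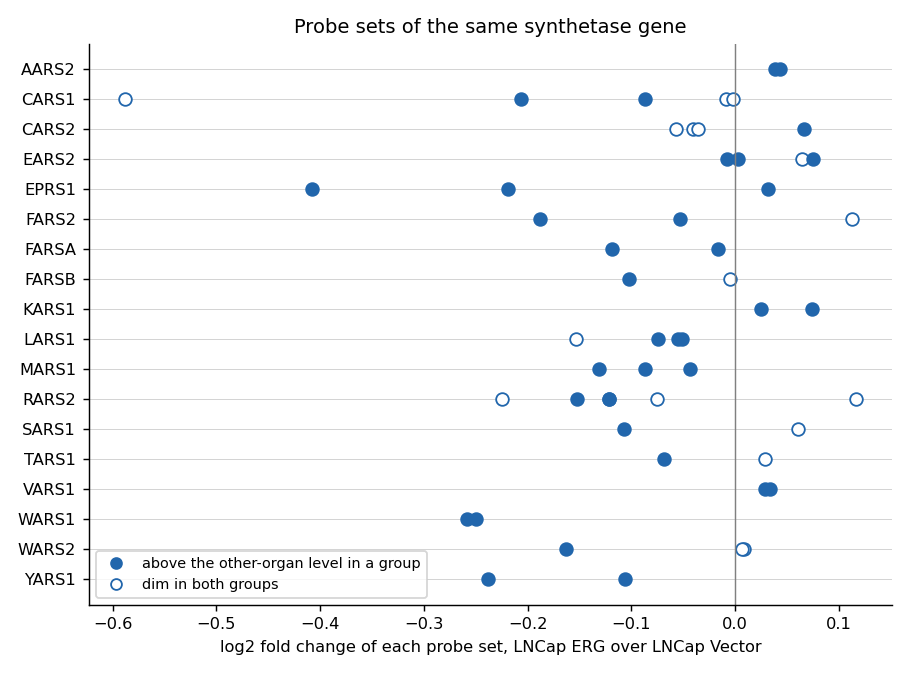
Log2 fold change, LNCap ERG over LNCap Vector (x axis), of each probe set of the 18 synthetase genes with several (y axis). Filled points lie above the 5.23 level in a group and open points do not; the 2 points of WARS1 lie together near -0.25, and those of EPRS1 run from -0.41 to 0.03.

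No gene passed the test in the lists of genes that share work with the synthetases, the amino acid stress genes included. Of 16 measured factors of tRNA end processing, editing, modification and export, 0 passed and the median was -0.07. Among them TRMT1, a tRNA guanine methyltransferase, had 0.22 (adjusted p = 0.495 from limma), DUS1L, a dihydrouridine synthase, 0.20 and XPOT, the tRNA exporter, -0.23. Of 6 measured elongation factor genes 0 passed (median -0.02, from -0.12 for EIF5A to 0.14 for EEF1A2, with EEF1A1 at -0.06). Of 12 measured mitochondrial translation factors 0 passed (median -0.04). QRSL1, a subunit of the amidotransferase that makes glutaminyl-tRNA in mitochondria, had -0.17, GFM1, an elongation factor, -0.27, and MTRF1, a release factor, -0.17. Probe sets of a gene could differ in sign: those of MTRF1 ran from -0.17 to 0.11, of EIF5A from -0.19 to 0.08 and of EEF1A1 from -0.22 to 0.05. Those of QRSL1 were all lower, at -0.24 to -0.09. At an unadjusted p under 0.05 limma gave only TRMT1, higher, among the genes of these 3 lists, a smaller share than the 5.61% higher and 4.11% lower over all genes.

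Of 25 measured ATF4 target genes, a list chosen with the lower level of such stress genes in these arrays already known, 0 passed by limma over all genes, and 9 were lower and 0 higher at an unadjusted p under 0.05, where 4.11% of all genes were lower and 5.61% higher. Their median log2 fold change was -0.20, from -0.18 to -0.15 without single arrays, with 15 lower and 2 higher without overlap against 19.1% and 21.7% of all genes. Since the list was chosen for such a pattern, nothing is read from these counts. TRIB3, a pseudokinase, had -0.49 (adjusted p = 0.255), CHAC1, a glutathione-degrading enzyme, -0.57 (adjusted p = 0.319) and ATF3, a stress transcription factor, -0.41 (adjusted p = 0.319 from limma). ASNS, which makes asparagine, had -0.25 and ATF4 mRNA -0.08, both named after their values were seen. The probe sets of ATF3 ran from -0.48 to 0.11 and those of ASNS from -0.25 to 0.12, so not all were lower. Those of TRIB3 were all lower, at -0.49 to -0.36. Of 15 measured amino acid transporters, 4 of them also in the ATF4 list, 0 passed, with 5 lower and 0 higher at an unadjusted p under 0.05 and a median of -0.18. SLC7A11 and SLC7A5, 2 of these 5, are counted in the ATF4 list as well, and the shares over all genes are those given for that list. SLC7A11, the cystine carrier, had -0.53, SLC7A5, a carrier of large neutral amino acids, -0.34 and SLC43A1, another, -0.28. Of 15 measured genes of amino acid sensing 0 passed, with a median of -0.03. SESN2, a leucine sensor also in the ATF4 list, had -0.38, and its probe sets ran from -0.38 to -0.01. SESN1 had 0.22 and RRAGD, a lysosomal GTPase, -0.16. The kinase EIF2AK4, which binds uncharged tRNA and was named after its value was seen, had -0.01. The difference between these lists and the synthetases was not tested.

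**Figure D5:**
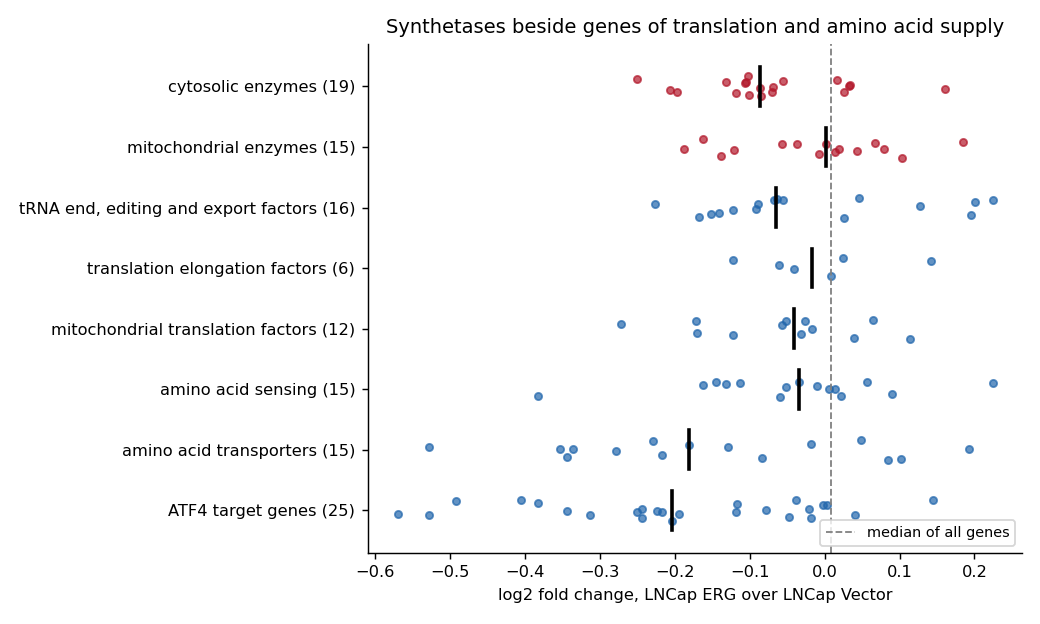
Log2 fold change, LNCap ERG over LNCap Vector (x axis), of the genes of 8 lists (y axis, number measured in brackets), each point a gene and the black line the list's median, with the median of all genes dashed at 0.01. Medians run from 0.00 for the mitochondrial synthetases and -0.09 for the cytosolic ones to -0.18 for amino acid transporters and -0.20 for ATF4 target genes.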

How the data were processed

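RNA was labelled with biotin and hybridised to Affymetrix arrays, which the authors name as GeneChip Human Genome U133 2.0. The deposited probe set names carry the mark _PM_, and the array type was not checked beyond the authors' name for it. The authors analysed the scans with dChip, normalized them with RMAexpress and annotated them with Multiexperiment Viewer; their versions are not stated. Deposited per probe set is an intensity, treated as linear because array medians were 14.0 to 14.4 while the highest values reached 14962 to 15344, and it was converted to log2. The normalization makes levels relative within each array, so a shift common to all genes would not be seen. Of 51965 probe sets, 2 had a missing value and were left out, and 39466 name 1 gene. Each gene was read at its probe set with the highest mean, which gave 19583 genes. Symbols were checked against the RefSeq table of GRCh38.p14.

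The groups were tested in R 4.3.3 by limma 3.58.1, through lmFit and eBayes (2 residual and 3.23 prior degrees of freedom), with p-values adjusted by Benjamini-Hochberg over all genes and a threshold of 0.05. Intervals are 95% intervals of that fit. The fit was tested on simulated data with planted changes larger than any seen among the members. That test does not show whether changes as small as theirs would be found. The members and lists were chosen with earlier results of these data known, and lists carry counts and medians only. Chosen for closer description were members past the threshold, and up to 10 cytosolic and 6 mitochondrial members with the largest changes and no overlap. Some of them are given here by their change without array values or standard error. Up to 3 genes with the smallest p were chosen in every other list. Arrays have no read depth; their number limits the precision. The alternatives were trended and robust moderation, a filter on dim genes, other choices of probe sets, centring on 22 housekeeping genes, a second quantile normalization, a block for the replicate number, each array left out in turn, and the t-test that the methods name. No source used here gives slide or scan batches.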

Additional observations from a re-analysis of the deposited data

How the results depend on the processing

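The count of synthetase genes past the adjusted threshold was 0 under all 9 alternatives with 4 arrays and without each array in turn, with a smallest adjusted p of 0.190, for WARS1 under trended and robust moderation. That setting gave 5 lower and 1 higher at an unadjusted p under 0.05, the filter on dim genes 4 and 0, the mean of probe sets 3 and 0, and the methods' t-test 2 and 0, while trended moderation and the filter put 89 and 54 of all genes past the adjusted threshold. No member, WARS1 included, kept an unadjusted p under 0.05 with housekeeping centring (52 of all genes past the adjusted threshold). WARS1 did not keep it by the methods' t-test either. With the replicate number as a block the count was 0 too (smallest adjusted p = 0.513), and the block changed no call; same-numbered arrays' deviations correlated by 0.08 over all genes and 0.13 over the brighter ones, in 2 pairs, too few to show pairing. The cytosolic median log2 fold change was -0.079 with quantile normalization again and -0.097 with housekeeping centring, and ran from -0.092 to -0.048 without single arrays. The mitochondrial median ran from -0.055 to 0.059 and the difference of medians from -0.152 to 0.00722 without single arrays, the ends of both set by the LNCap ERG arrays. WARS2 turned to 0.00676 with plain probe sets, which read it at a dim one. Every other alternative of the 16 genes chosen for closer description, 205 in all, kept its direction, and those with 4 arrays stayed short of the threshold. In a count chosen after seeing the data, 14 to 16 cytosolic genes lay below 0 in the settings that read all 19 and 11 with plain probe sets, and 5 to 10 mitochondrial genes did.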
